A study of Mus musculus with 4 samples.

Results

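Fat inside a cell is stored in lipid droplets, a core of triglyceride under a single layer of phospholipid that carries a coat of proteins. Brown adipocytes, which burn fat for heat, keep many small droplets, while white adipocytes keep a large one, and droplets of brown fat grow and merge when the tissue is fed fat. The genes described here encode proteins that coat droplets (the perilipins Plin1, Plin2, Plin3, Plin4 and Plin5), fuse them (Cidea and Cidec), help form them at the endoplasmic reticulum (Fitm2 and Bscl2) or hold back their main lipase (G0s2). They were chosen by gene symbol, and all 10 were found among the 52022 genes with an annotated transcript and passed the filter on low counts, which left 15643 genes.

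The tissue was brown adipose tissue of male mice that were fed ad libitum and ate a diet of 60% fat for 12 weeks. The KO group holds 2 libraries of mice that lack ATF4, a transcription factor of the integrated stress response, in thermogenic adipocytes, and the WT group holds 2 libraries of their wild-type counterparts. The sources used here do not give the strain, the age, the means of the deletion or whether each library is a separate animal, so a p-value reflects only how much these libraries vary. The library names begin with S1 (KO 1 and WT 2) or S2 (KO 2 and WT 1), a prefix whose meaning they do not give either, and each prefix holds 1 library of each genotype.

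The total estimated count was 25985367 in KO 1 and 30405113 in KO 2, and 32714456 in WT 1 and 34813870 in WT 2. The targeted gene, Atf4, was at 25 and 24.5 CPM (counts per 1e6 counts) in the KO libraries, against 29.2 CPM in the library labelled WT 1 and 106.7 CPM in WT 2. It therefore sets WT 2 apart from KO far more than the library labelled WT 1, and with a log2 fold change of -1.46 (SE 0.57) it was not called (edgeR adjusted p = 1.0). The brown fat marker Ucp1, which uncouples respiration, reached 7024 and 5989 CPM in KO and 5563 and 6295 CPM in WT. The 12 skeletal muscle markers summed to 2914 and 2741 CPM in KO, against 1.59 and 1.71 CPM in WT. In every marker list used here, 0 genes were at 0 in all libraries. The KO 1 library stood apart in 2 ways that touch the values below. It had the largest mitochondrial share of counts, 38.9%, with 33% in KO 2 and 34.1% and 33.9% in WT. It also differed most in which transcript of a gene its reads were assigned to: of 8943 genes with at least 2 transcripts detected and at least 100 counts in each library, the share of the leading transcript lay over 10 percentage points outside the other libraries' range in 16.8% for KO 1 and 8.42% for KO 2, and in 6.59% for WT 1 and 5.62% for WT 2. In bulk tissue, fewer cells of a type and less RNA per cell cannot be told apart.

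Together the 10 genes held 0.52% of all counts in KO 1 and 0.583% in KO 2, and 0.572% and 0.611% in WT 1 and WT 2. Levels between genes are compared in TPM, which is scaled for transcript length. Cidea was the highest member in all 4 libraries, at 1350 and 1323 TPM in KO and 1314 and 1545 TPM in WT. Cidea is known for its high expression in brown adipocytes, where its protein sits where droplets touch and passes lipid to the larger one. Cidec, Plin1 and Plin2 came next, with mean levels of 650, 580 and 611 TPM in KO and 770, 686 and 612 TPM in WT, and their order differed between libraries. G0s2 followed, at 349 ± 77.8 TPM in KO and 615 ± 7.09 TPM in WT (SD, n = 2 each), so that its mean was near that of Plin2 in WT and below it in KO. Plin5, Bscl2 and Plin4 had means of 149, 137 and 95.2 TPM in KO and 153, 129 and 101 TPM in WT, and the ranges of neighbours in this order overlapped. Fitm2 and Plin3 were the lowest, at 42.6 and 36.1 TPM in KO and 44.1 and 43.3 TPM in WT. Plin3 was last in all 4 libraries, but its range overlapped that of Fitm2.

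**Figure D1:**
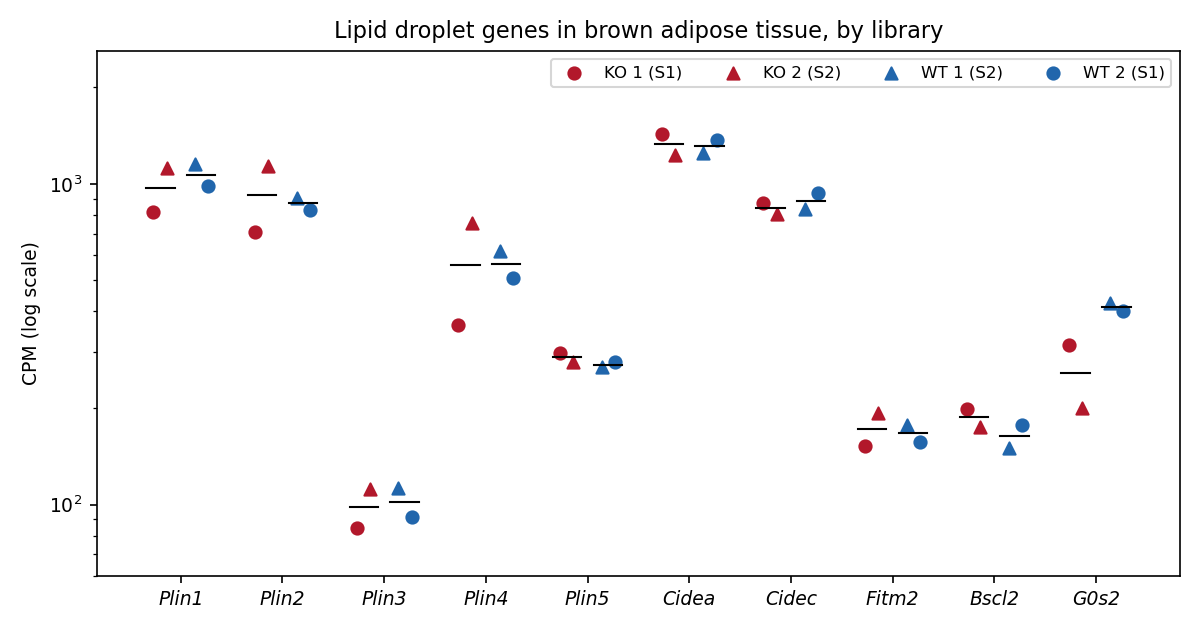
CPM of each lipid droplet gene (log axis) in the KO libraries (red, left of each gene) and the WT libraries (blue, right), with circles for prefix S1, triangles for prefix S2 and a black line at each group's mean. G0s2 is the gene whose 2 KO points, 313 and 200 CPM, both lie below its 2 WT points, 426 and 402 CPM.

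The first comparison asked whether lack of ATF4 in thermogenic adipocytes went with other levels of these genes. For 9 of the 10 genes the KO and WT libraries overlapped, and G0s2 was lower in each KO library than in any WT library. Over all 15643 genes the genotypes did not overlap for 26.3%, with KO lower for 13.1% and higher for 13.2%. None of the 10 genes passed edgeR's quasi-likelihood test at an adjusted p of 0.05 (Benjamini-Hochberg over all genes tested), against 0.78% of all genes called, and 0 passed with DESeq2 (1.02% of genes called) or limma. At an unadjusted p under 0.05 there was 1 member, G0s2, against 4.02% of all genes. The members' log2 fold changes (KO over WT) had a median of 0.00, with 5 above 0 and 5 below, and the median over all genes was also 0.00.

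G0s2 encodes a small protein that binds adipose triglyceride lipase (ATGL, the product of Pnpla2) and blocks the first step of triglyceride breakdown. The gene (ENSMUSG00000009633) lies on the minus strand of chromosome 1, from 193272161 to 193273217 (GRCm38), and has 1 annotated transcript of 2 exons and 871 bases. It was at 313.4 CPM in KO 1 and 200.4 CPM in KO 2, against 426.2 CPM in WT 1 and 401.9 CPM in WT 2. KO 2 was lowest and the WT libraries lay close together. The mean was 257 ± 79.9 CPM in KO and 414 ± 17.2 CPM in WT (SD, n = 2 each). The log2 fold change was -0.69 (SE 0.27, 95% interval -1.35 to -0.02), which did not pass in edgeR (adjusted p = 1.0, unadjusted p = 0.0446). KO was below WT within both prefixes, by 0.36 on the log2 scale in S1 and by 1.09 in S2. With the prefix as a block the log2 fold change was -0.72 (SE 0.22, edgeR adjusted p = 0.204, unadjusted p = 0.00728), in a fit that called 2.05% of all genes. Leaving out KO 1 gave -1.05, leaving out KO 2 gave -0.40 and leaving out the library labelled WT 1 gave -0.65 (SE 0.46). Over 17 alternatives the adjusted p of G0s2 ranged from 0.202 to 1.0.

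The gene of the lipase it inhibits overlapped between the genotypes. Pnpla2 was at 1943 and 2148 CPM in KO and 2163 and 2093 CPM in WT, a log2 fold change of -0.06 (SE 0.24, edgeR adjusted p = 1.0). The TPM of G0s2 divided by that of Pnpla2 was 0.427 for KO 1 and 0.243 for KO 2, below the 0.515 of WT 1 and the 0.514 of WT 2. Since Pnpla2 varied little, this ratio largely repeats the G0s2 difference and is not a separate result. Abhd5, which encodes the coactivator of ATGL, was at 96.0 and 90.4 CPM in KO and 79.8 and 102.7 CPM in WT. An exact permutation test of 2 libraries against 2 cannot give a two-sided p below 0.333, so none was run on these ratios.

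The summed level of 8 white adipocyte markers also separated the genotypes, with 79.7 and 157.9 CPM in KO against 383.8 and 268.9 CPM in WT. KO 1 was lowest in that sum and KO 2 in G0s2. With the prefix as a block 4 of the 6 tested ones were called lower in KO (Lep, Nnat, Mest and Slc7a10), as was the brown marker Dio2. That fit called 2.05% of all genes. Without the block, the log2 fold change was above 0 for 1 of the 6 white markers (Hoxc8, 0.66). It was above 0 for 5 of the 9 brown markers, whose median was 0.09. The 7 fibroblast markers separated the genotypes in the same direction, with sums of 446.8 and 641.1 CPM in KO against 683.8 and 1035 CPM in WT, and 0 of the 7 were called with or without the block. The 8 markers of adipocytes in general summed to 17330 and 24308 CPM in KO and 29957 and 19280 CPM in WT, which overlapped, as did the sums of the 7 without Scd1, 12799 and 10484 CPM in KO and 11108 and 11706 CPM in WT. The 12 macrophage markers summed to 116 and 329 CPM in KO and 414 and 311 CPM in WT, which overlapped. Of these 12, 0 had a log2 fold change above 0 (median -0.75), and 0 were called with or without the block. The 6 endothelial markers summed to 1174 and 713.5 CPM in KO and 631.5 and 895.3 CPM in WT, which overlapped. All 6 had a log2 fold change above 0 (median 0.27), and 0 were called with or without the block. The part of all these markers in the G0s2 difference was not tested. Across the 4 libraries G0s2 had the widest range of the members, 1.09 on the log2 CPM scale. Of 10971 other named genes with a mean log2 CPM of at least 1, the nearest to its centred log2 CPM was Adrb1, a beta-adrenergic receptor, at a root mean square distance of 0.047 over 4 libraries. Adrb1 was at 20.4 and 13.0 CPM in KO and 26.4 and 24.2 CPM in WT. Nfkbiz was at a distance of 0.069 and Col8a1 at 0.077, and 68 genes lay within 0.2.

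The sequence before G0s2 is shown because this was the member whose genotypes did not overlap. RefSeq (GRCm38.p6) gives the bases before its start, here without the exon of the GENCODE model, on the minus strand at chr1:193273218-193273438 and 5′ to 3′.
G0s2: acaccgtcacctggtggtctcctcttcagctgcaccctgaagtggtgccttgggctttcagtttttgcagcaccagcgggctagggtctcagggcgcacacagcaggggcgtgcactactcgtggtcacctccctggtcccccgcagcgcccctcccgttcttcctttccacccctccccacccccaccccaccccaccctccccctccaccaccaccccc
The stretch next to the start is rich in C on this strand. The element TGATGNAA, which ATF4 binds together with CHOP, was searched on both strands of the 250 bases before each start and was in 3.45% of 32851 windows in the mouse table. It was in 0 of the 13 windows of the members with an entry, which belong to 9 members, all but Cidea. That says only that these letters are not there.

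The adipocyte coat protein Plin1, which guards the droplet against lipases until adrenergic signals phosphorylate it, was at 817.1 and 1120 CPM in KO and 1151 and 986.5 CPM in WT. KO 1 was lowest and the groups overlapped, with a log2 fold change of -0.14 (SE 0.26, 95% interval -0.79 to 0.50). Plin2, the coat protein found in most cell types, was at 705.6 and 1138 CPM in KO and 906.2 and 831.2 CPM in WT, so that both extremes were KO libraries (log2 fold change 0.09, SE 0.30). Plin3, which moves from the cytosol onto young droplets, was at 84.2 and 112.1 CPM in KO and 112.8 and 91.4 CPM in WT (log2 fold change -0.06, SE 0.22). Plin4, a coat protein of adipocytes and muscle with a long repeat region, had the widest spread of the coat genes, at 362.0 and 755.8 CPM in KO and 619.5 and 508.8 CPM in WT. The KO libraries held its lowest and its highest value, and its 95% interval ran from -0.95 to 0.92. Skeletal muscle also expresses Plin4 and Plin5, and the part of the muscle markers in KO in their values was not tested. In Plin1 to Plin4 alike, KO 1 was the lowest of the 4 libraries.

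Plin5, which tethers droplets to mitochondria in tissues that oxidise fat, was the steadiest member. It was at 297.8 and 277.3 CPM in KO and 267.8 and 277.8 CPM in WT, a coefficient of variation of 4.49% over the 4 libraries. Its log2 fold change of 0.08 (SE 0.19) had a 95% interval of -0.38 to 0.54. This was the narrowest interval among the coat genes.

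Both fusion genes were also steady in CPM, while in TPM Cidec ran from 571.5 in KO 1 to 822.2 in WT 2. Cidea was at 1428 and 1231 CPM in KO and 1252 and 1366 CPM in WT, with a log2 fold change of 0.02 (SE 0.23, 95% interval -0.56 to 0.60). Cidec, known for driving the single large droplet of white fat, was at 870.5 and 807.5 CPM in KO and 834.7 and 933.2 CPM in WT, with a log2 fold change of -0.08 (SE 0.22, 95% interval -0.61 to 0.46). The ratio of Cidea to Cidec in TPM was 2.36 in KO 1 and 1.82 in KO 2, and 1.83 and 1.88 in WT 1 and WT 2. KO 1 had the highest ratio and also another mix of Cidec transcripts, whose values follow later.

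Both genes of droplet formation overlapped between the genotypes. Fitm2, an endoplasmic reticulum protein needed for droplets to bud, was at 152.2 and 192.4 CPM in KO and 176.5 and 157.1 CPM in WT (log2 fold change 0.05, SE 0.20). Bscl2 encodes seipin, which sits where a droplet meets the endoplasmic reticulum and whose loss causes lipodystrophy. It was at 199.0 and 174.9 CPM in KO and 150.5 and 176.9 CPM in WT, a log2 fold change of 0.19 (SE 0.19, 95% interval -0.29 to 0.67). KO was above WT within both prefixes, by 0.17 in S1 and 0.22 in S2, but KO 2 was below WT 2.

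**Figure D2:**
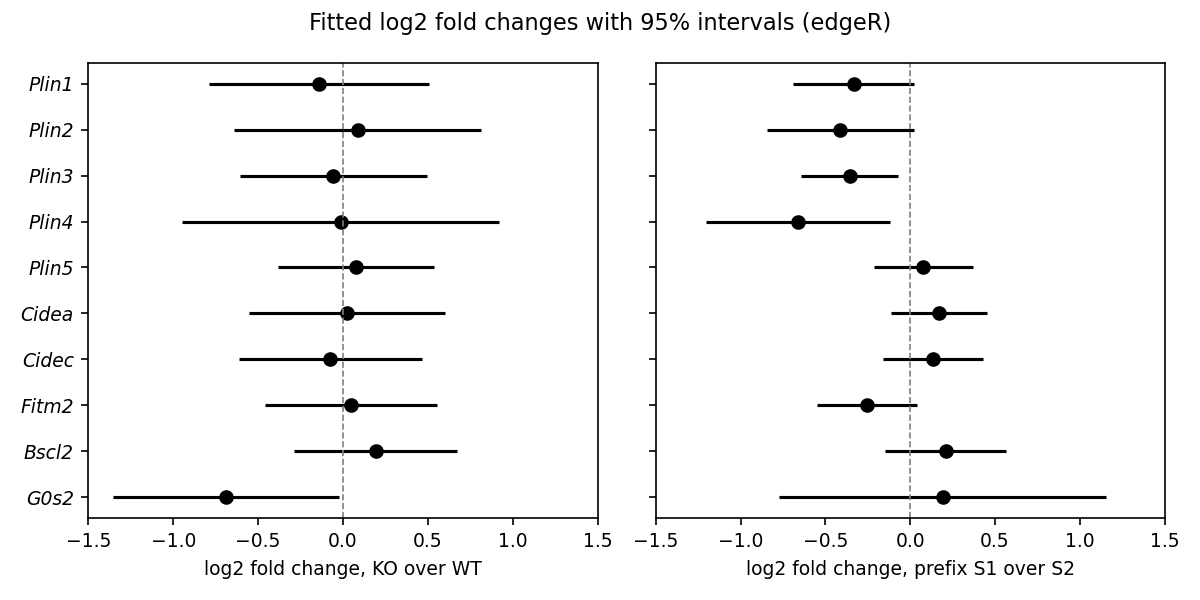
Fitted log2 fold changes (points) with 95% intervals (lines) from edgeR, KO over WT on the left and prefix S1 over S2 on the right, 2 libraries a group, dashed line at 0. On the left the interval of G0s2, -1.35 to -0.02, is the one that does not reach 0, and on the right those of Plin3 and Plin4; these intervals are not adjusted for the number of genes.

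The second comparison set prefix S1 (KO 1 and WT 2) against S2 (KO 2 and WT 1). In CPM, 9 of the 10 genes were separated by prefix, with S1 lower for 5 and higher for 4. Over all genes the prefixes were separated for 53.2%, with S1 lower for 27.3% and higher for 25.9%. The 5 lower ones were Plin1, Plin2, Plin3, Plin4 and Fitm2, and the 4 higher ones Plin5, Cidea, Cidec and Bscl2. For Plin5 the nearest values almost met, at 277.8 CPM in WT 2 (S1) and 277.3 CPM in KO 2 (S2). In TPM the prefixes overlapped for Plin2, Plin5, Cidec and G0s2, and the share over all genes in TPM was not counted. None of the 10 passed edgeR's test (adjusted p), which called 0.00639% of genes, and 2 had an unadjusted p under 0.05, against 15.5% of all genes. The 1 gene called was Dbp, a clock output factor that was named with its values known, which had 51.8 and 45.4 CPM in S1 against 3.19 and 3.76 CPM in S2.

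Plin4 differed most. It averaged 435 ± 104 CPM in S1 and 688 ± 96.4 CPM in S2 (SD, n = 2 each). The log2 fold change was -0.66 (SE 0.21, 95% interval -1.20 to -0.12, edgeR adjusted p = 0.289). S1 was lower by 1.06 on the log2 scale within KO and by 0.28 within WT. Plin4 was the member called by DESeq2 (log2 fold change -0.67, SE 0.22, adjusted p = 0.0486), which called 3.94% of genes, and by edgeR with no filter on low counts (adjusted p = 0.0293), which called 3.06%. With genotype as a further term it was not called (edgeR adjusted p = 0.147), in a fit that called 3.14%. Without KO 1 its log2 fold change was -0.44 and without WT 2 it was -0.93.

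Plin3 had a log2 fold change of -0.36 (SE 0.11), at 84.2 and 91.4 CPM in S1 and 112.1 and 112.8 CPM in S2. For Plin2 it was -0.41 (SE 0.17), for Plin1 -0.33 (SE 0.14) and for Fitm2 -0.25 (SE 0.12). Within KO the S1 library was lower by 0.46 for Plin1, 0.69 for Plin2, 0.41 for Plin3 and 0.34 for Fitm2, and within WT by 0.22, 0.13, 0.30 and 0.17 in the same order. All 5 genes thus had the larger gap between the KO libraries. The 4 genes that were higher in S1 had log2 fold changes of 0.08 (Plin5, SE 0.11) to 0.21 (Bscl2, SE 0.14), with 0.17 (SE 0.11) for Cidea and 0.14 (SE 0.11) for Cidec. G0s2 overlapped between the prefixes, at 313.4 and 401.9 CPM in S1 and 200.4 and 426.2 CPM in S2.

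**Figure D3:**
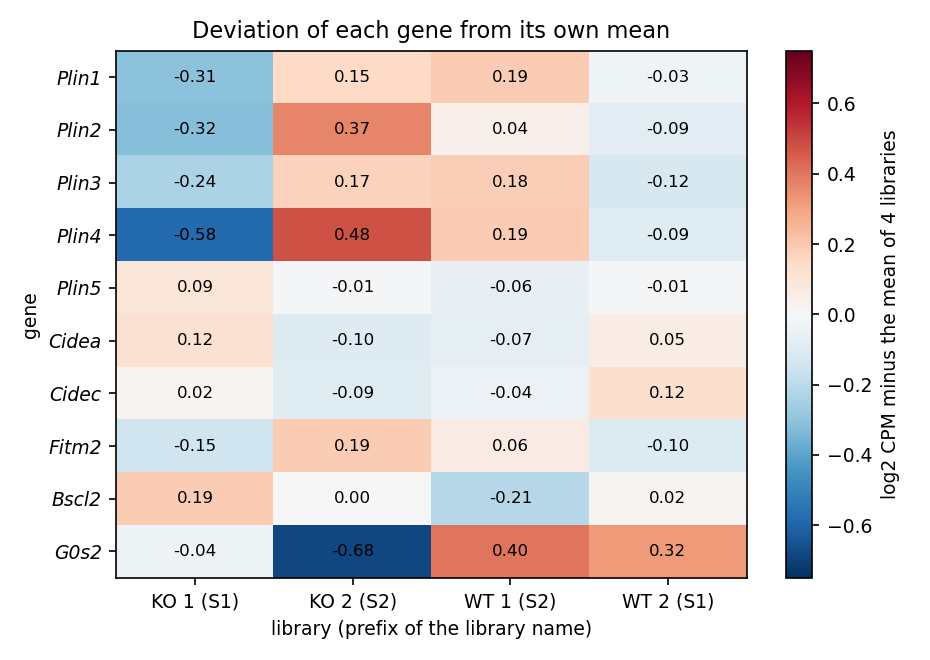
Log2 CPM of each gene minus its mean over the 4 libraries (colour and printed value), with the KO libraries left of the WT libraries. Plin1, Plin2, Plin3, Plin4 and Fitm2 share one pattern, lowest in KO 1 and high in KO 2 (from 0.15 to 0.48), while G0s2 is at -0.04 and -0.68 in KO and 0.40 and 0.32 in WT.

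The closest pairs of members in these deviations were Plin5 with Cidea, at a root mean square distance of 0.055 on the log2 scale over 4 libraries, Plin1 with Plin3 at 0.056 and Cidea with Cidec at 0.061. Plin2 and Plin4 were 0.161 apart. All these distances describe the same 4 libraries, which differ in prefix and depth. Other values moved with the prefix. Ppara, which encodes a receptor that switches on fat oxidation and droplet coat genes, was at 47.6 and 61.1 CPM in S1 against 157 and 132.6 CPM in S2 (log2 fold change -1.41, SE 0.175, edgeR adjusted p = 0.277, and 0.00407 with genotype as a further term). The 12 macrophage markers summed to 116 and 311 CPM in S1 and 329 and 414 CPM in S2, and the 6 endothelial markers to 1174 and 895 CPM in S1 and 713.5 and 631.5 CPM in S2. Among adipocyte markers Scd1, a fatty acid desaturase, was lower in S1, at 4531 and 7575 CPM against 13824 and 18849 CPM in S2. The other 7 summed to more in S1, 12799 and 11706 CPM, than in S2, 10484 and 11108 CPM. Of all 8 adipocyte markers 5 had a log2 fold change above 0. Pck1 was lower in S1, at 2586 and 2557 CPM against 3227 and 2941 CPM in S2. With genotype as a further term, 5 macrophage markers were called lower in S1, and 2 endothelial markers and 1 brown marker higher. Of the adipocyte markers 2 were called higher and 1 lower, and of the white markers 1 higher and 2 lower. This fit called 3.14% of all genes. Without that term, 2 of the 12 macrophage markers had a log2 fold change above 0, Gpnmb (0.51) and Cd68 (0.31). The part of all these values in the differences of the members was not tested.

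Transcripts within the members were compared in TPM, by the share of the gene's summed TPM. KO 1 differed from the other libraries in several of them. Plin5 (minus strand of chromosome 17, 56111601 to 56117596, GRCm38) has 2 annotated transcripts of 1986 bases with the same coding length of 1389 bases and different first exons. The one that starts downstream, at 56117298 (ENSMUST00000113072), held 6.78% in KO 1 and 22.8% in KO 2, and 32.9% and 29.2% in WT 1 and WT 2. In TPM it was at 9.78 and 34.8 in KO and 47.4 and 47.1 in WT, while the one that starts at 56117596 was at 134.5 and 118.0 TPM in KO and 96.7 and 114.0 TPM in WT. Both KO libraries were thus below both WT libraries for the transcript with the downstream start, with no test and with KO 1 farthest from WT. For the one with the upstream start both were above, but KO 2 and WT 2 were close, at 118.0 and 114.0 TPM. In the CPM of whole genes the genotypes did not overlap for 26.3% of all genes, and the share over all transcripts was not counted.

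The bases before each Plin5 start are shown because the libraries differed in the TPM assigned to the transcripts with these starts. Whether the use of the starts themselves differed was not tested. Both come from RefSeq (GRCm38.p6), minus strand and 5′ to 3′, without the bases of GENCODE exons, with AGGTCA, a core site of nuclear receptors such as PPARs, in capitals where it occurs on either strand. The first is chr17:56117597-56117798 and the second, which lies next to the first exon of the upstream transcript, chr17:56117299-56117501.
Plin5 upstream start: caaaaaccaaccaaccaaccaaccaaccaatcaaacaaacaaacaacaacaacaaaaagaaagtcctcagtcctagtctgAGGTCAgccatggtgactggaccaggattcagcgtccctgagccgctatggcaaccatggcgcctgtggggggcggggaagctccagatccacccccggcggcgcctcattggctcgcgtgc
Plin5 downstream start: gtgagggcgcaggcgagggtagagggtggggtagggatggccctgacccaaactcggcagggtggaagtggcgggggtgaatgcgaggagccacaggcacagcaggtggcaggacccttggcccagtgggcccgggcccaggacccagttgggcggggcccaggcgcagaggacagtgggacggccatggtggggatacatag
The site is in the first sequence and not in the second. In the table it was in 14% of the 250-base windows and in 3 of the 13 windows of the members, those of Plin2, Plin5 and Bscl2.

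Cidec (minus strand of chromosome 6, 113424634 to 113435760) showed the largest gap in share between KO 1 and the other libraries among the named transcripts. Its transcript ENSMUST00000113089 held 51.6% in KO 1 and 19.8% in KO 2, and 19.4% and 19.1% in WT 1 and WT 2. The transcript ENSMUST00000032416, which has the same coding length of 717 bases, held 33.8% in KO 1 and 48.9% in KO 2, and 51.4% and 55.98% in WT. These models start at 113435760 and 113435756 and have 1720 and 1703 bases, so the split of reads between them may be uncertain. A transcript with a longer coding sequence of 747 bases (ENSMUST00000113091) was listed at 0 in all 4 libraries. Partial models without an annotated 3′ end had their lowest share in KO 1 in the 4 members that have such models with any TPM, of which Plin2 had under 1% in each library. For Cidec this model held 14.6% in KO 1 and 31.3% in KO 2, and 29.3% and 24.97% in WT. For Plin3 it held 13.3% in KO 1 and 37.5% in KO 2, and 32.5% and 38.99% in WT, and for Plin1 2.96% and 16.2% in KO and 15.5% and 8.93% in WT. Over all non-mitochondrial genes, models without a 3′ end took 0.79% of counts in KO 1 and 1.08% in KO 2, and 1.08% and 0.97% in WT, while models without a 5′ end took 2.33% in KO 1 and 1.83% in KO 2, and 1.82% and 1.99% in WT. KO 1 thus held the lowest share of the first kind and the highest of the second, and the part of this in the members' shares was not tested.

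**Figure D4:**
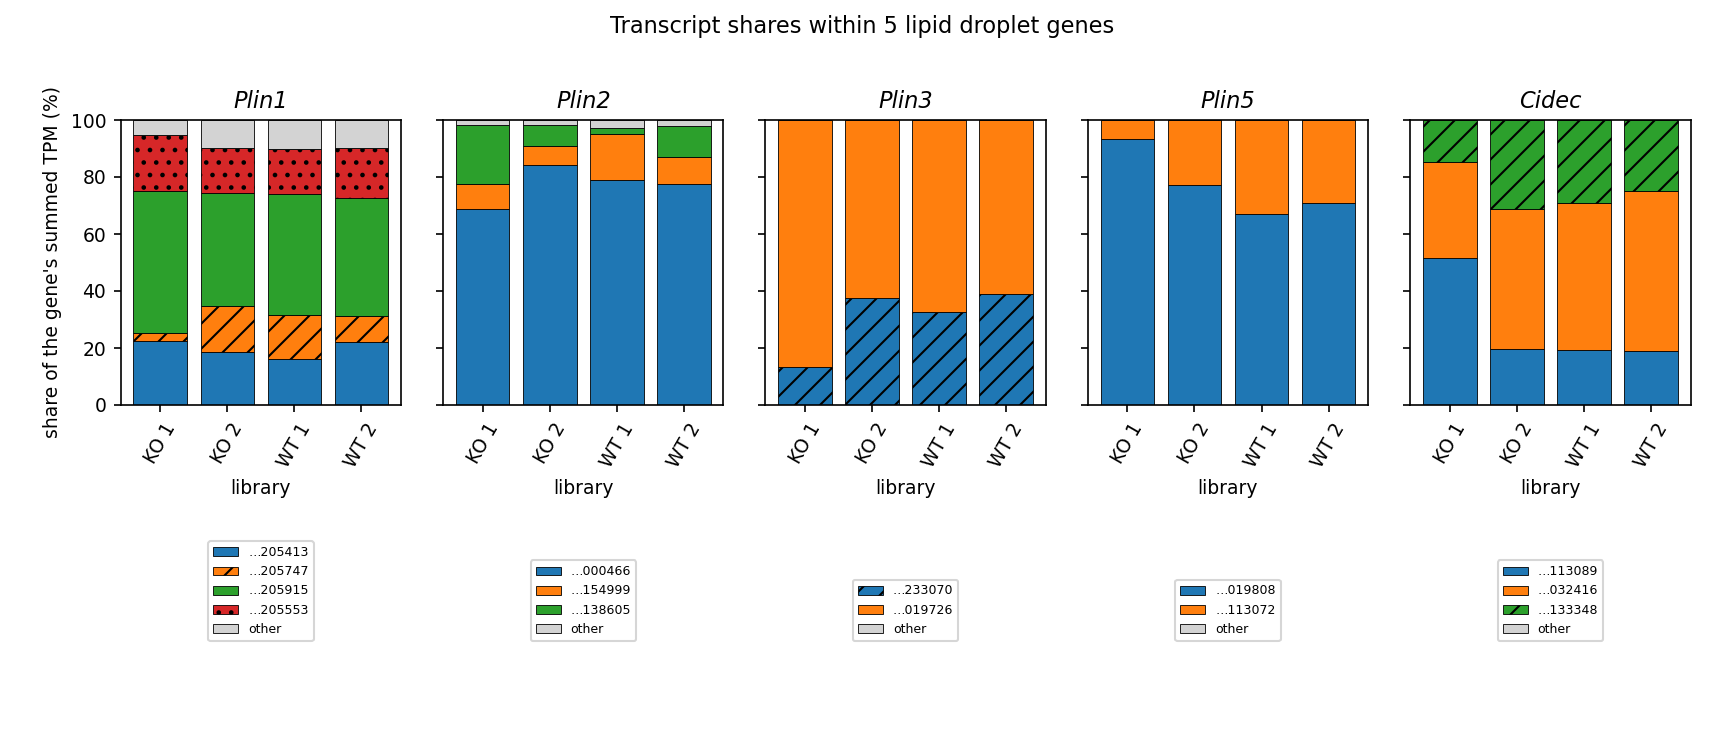
Share of each gene's summed TPM (percent, bars from 0 to 100) held by each transcript with at least 10% in a library, for the KO libraries (left) and the WT libraries (right) of 5 members; hatching marks models without an annotated 3′ end, dots those without a 5′ end, and grey all other transcripts. KO 1 differs from the other 3 libraries in Cidec, where 1 transcript holds 51.6%, and in Plin3 and Plin5.

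Plin4 has 2 transcripts that differ by 1 base in length, so the split between them is uncertain, and their sum is used. For Bscl2 the leading transcript, ENSMUST00000086058, held 71.7% and 74.2% in KO and 72.5% and 73.1% in WT, and did not set KO 1 apart. The kit kept strand, but no source used here gives the strand setting of the counting. Of the genes on the opposite strand that overlap a member, Hdgfl2 (at Plin4) had 991 to 1126 counts, Lamb3 (at G0s2) 325 to 522 and Gng3 (at Bscl2) 7 to 11. The antisense genes B430212C06Rik (at Cidea) and 2310001K24Rik (at Fitm2) had 254 to 410 and 15 to 29. The members had 5848 to 14763 counts for G0s2, 9265 to 22051 for Plin4, 4723 to 6499 for Bscl2, 35900 to 50188 for Cidea and 3895 to 5772 for Fitm2, and the part of opposite-strand reads in them was not tested.

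The wider droplet machinery was examined in 5 lists, of which 53 of 55 genes could be tested. For the genotype 1 gene passed, higher in KO, and 0 were lower, against 0.78% of all genes called. It was Fitm1, the muscle relative of Fitm2, with 78 counts in each KO library, 1 in WT 1 and 0 in WT 2 (log2 fold change 7.25, SE 0.71, edgeR adjusted p = 0.0159). The ratio of KO to WT was 186.8, with an exact 95% interval for counting error of 33.04 to 7425. Fitm1 passed the filter on low counts only through the KO libraries, where it was high. All 12 skeletal muscle markers were called higher in KO as well, and most of them also passed that filter only through KO. The part of these markers in the Fitm1 difference was not tested.

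Among lipases and their partners 0 of 7 passed in either direction, with a median log2 fold change of -0.06 and Pnpla3, a patatin-like relative of ATGL, having the smallest p (-0.34, SE 0.21). Among 13 genes of triglyceride synthesis 0 passed (median 0.00). Lpin1, a phosphatidate phosphatase, had -0.56 (SE 0.27), at 111.1 and 153 CPM in KO against 228.9 and 159.9 CPM in WT. Of 18 genes of droplet formation and contacts the 1 was Fitm1 (median -0.02), and Acsl3, an acyl-CoA synthetase found on new droplets, had 0.42 (SE 0.16) at 17.3 and 19.3 CPM in KO against 13.9 and 13.4 CPM in WT. Of 6 tested genes of other surface proteins (median -0.03) and 9 lipid regulators (median 0.03) 0 passed. Srebf1, a regulator of lipid synthesis, had -0.47 (SE 0.29).

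Between the prefixes 0 of these genes passed without a further term, and 2 of the 53 passed with genotype as a further term, both lower in S1, in the fit that called 3.14% of all genes. They were Ppara, given above, and Clstn3, whose locus also yields a brown fat protein of droplet contacts, at 21.3 and 18.8 CPM in S1 against 30.3 and 32.7 CPM in S2 (log2 fold change -0.66, SE 0.15, edgeR adjusted p = 0.0497 with that term). Lipe, which encodes hormone-sensitive lipase, was at 955 and 1090 CPM in S1 and 1478 and 1453 CPM in S2, and Acsl1, an acyl-CoA synthetase, at 1508 and 1812 CPM in S1 and 2425 and 2274 CPM in S2. Agpat2, an enzyme of phosphatidate synthesis, was higher in S1, at 1459 and 1251 CPM against 981.5 and 1020 CPM in S2. For these 3 genes, named for a small p by prefix, the prefixes did not overlap, as for 53.2% of all genes. Their adjusted p in edgeR was 0.277 to 0.285.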

How the data were processed

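RNA was made into stranded TruSeq mRNA libraries, per the labels' protocols, and kallisto 0.45.0 with build mm10 is named in the submitters' processing notes; the transcript set and strand setting were not found in the sources. Per the file headers, the authors deposited an estimated count, a TPM value, a length and an effective length for 141450 transcripts in each library. Of these, 138191 (97.7%) matched GENCODE vM21 (GRCm38), and the other 3259, with 0.992 to 1.04% of counts, were left out.

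The deposited estimated counts of a gene's transcripts were added up and rounded, and so, without rounding, were the TPM values. Genes were tested with edgeR 4.0.16 (glmQLFTest, R 4.3.3) with TMM scaling and filterByExpr (minimum count 10, minimum total 15), with genotype or prefix as the sole term. Benjamini-Hochberg adjustment ran over all 15643 genes, with a threshold of 0.05. SEs come from the fold change and its F statistic. CPM used TMM-scaled library sizes, and log2 CPM a prior count of 2. Alternatives included DESeq2 1.42.0, limma 3.58.1, blocks, other filters and leaving out each library. The code was tested on simulated counts. Intervals on ratios of counts cover counting error only.

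Deviations from the group means correlated at 0.38 for libraries of the same prefix. With 2 libraries a group, the value for libraries of the same number, -0.38, is fixed as its opposite. The libraries were thus more alike by prefix than by number, which does not show whether the numbers pair the libraries.

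The members and lists were chosen with earlier results of these data known. Named genes are all members, up to 3 genes of each droplet list with the smallest p by genotype and up to 2 by prefix, the 3 genes nearest in pattern to the member of widest range, and transcripts with at least 10% of a member's TPM in a library; Pnpla2 and Abhd5 were added for G0s2. Of the marker lists, 12 of 12 muscle markers were called by genotype and 0 of 8 adipocyte, 9 brown, 6 tested white, 12 macrophage, 6 endothelial and 7 fibroblast markers, and by prefix 0 of each. Most of the muscle markers passed the filter on low counts only through the KO libraries. With both terms in the fit, 4 white and 1 brown marker were called lower by genotype, and 5 macrophage, 3 adipocyte, 3 white, 2 endothelial and 1 brown marker were called by prefix. The 9 brown markers summed to 8765 and 7344 CPM in KO and 7001 and 7572 CPM in WT.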

Additional observations from a re-analysis of the deposited data

Results flagged for a closer look

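For 4 genes the difference between KO and WT ran in opposite directions in the 2 prefixes, each of which holds 1 library per genotype. On the log2 CPM scale, KO minus WT was -0.236 in S1 and 0.329 in S2 for Plin2, and -0.491 in S1 and 0.287 in S2 for Plin4. For Cidea it was 0.064 in S1 and -0.025 in S2, and for Fitm2 -0.046 in S1 and 0.124 in S2. With 1 library on each side, the difference between the prefixes was not tested.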

How the results depend on the processing

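By genotype, 0 of the 10 genes were called in any of 17 alternatives. The 122 genes called in all became 457 with no filter on low counts, 210 with DESeq2 and 320 with the prefix as a block, and 78 to 205 when 1 library was left out (78 without KO 2, 205 without WT 2). The replicate number as a block gave 164 calls and 0 members, and whether the numbers pair the libraries is not known. A block leaves 1 residual degree of freedom. By prefix, the 1 call became 823 with no filter, 525 with DESeq2, 491 with genotype as a further term, 2 at a threshold of 0.1 and 0 with limma-voom (2394 genes had an unadjusted p under 0.05 there), and 0 to 1 when 1 library was left out. Plin4 was the 1 member called by prefix with no filter and with DESeq2 (log2 fold change -0.67 in both).

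Fold changes near 0 changed sign. By genotype, limma on log2(TPM + 1) gave -0.041 for Plin2, -0.037 for Plin5, -0.092 for Cidea and -0.07 for Fitm2, and with a pseudocount of 0.1 these were -0.041, -0.037, -0.092 and -0.072. The median of all genes moved to -0.07 and -0.11 on these scales. When 1 library was left out, Plin1 ran from -0.39 (without KO 2) to 0.067 (without KO 1), Plin2 from -0.302 to 0.39, Plin3 from -0.281 to 0.135 and Plin4 from -0.642 to 0.422, each with the same libraries at its ends. Cidea ran from -0.089 (without KO 1) to 0.123 (without KO 2), Fitm2 from -0.135 (without KO 2) to 0.206 (without KO 1) and Cidec from -0.153 (without WT 1) to 0.007 (without WT 2). By prefix, Cidec was at -0.04 with an offset for transcript length and at -0.076 on both TPM scales, and G0s2 ran from -0.251 without KO 2 to 0.835 without WT 1. The cause was not tested. Of the members' values under the alternatives, 151 kept direction and call by genotype and 19 changed sign, and by prefix 154 kept both, 4 changed sign and 2 became calls.

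With 2 libraries a group, even the narrowest 95% interval by genotype among the members, that of Plin5, ran from -0.38 to 0.54 on the log2 scale, and G0s2, with an estimate of -0.69, was not called.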
